A study of Mus musculus with 4 samples.

Results

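The 10 genes described here, Hmga2, Hmga1, Igf2bp1, Igf2bp2, Igf2bp3, Lin28b, Nras, Arid3b, Plagl2 and Nr6a1, are established targets of the let-7 microRNA family. They were taken by symbol from the 16211 genes of the mRNA tables, and all 10 were listed. The cells were tumor-initiating hepatocytes of C57BL/6 mice. They carried a short hairpin RNA, either a control (shcont) or one directed at the long noncoding transcript H19 (shH19). For each hairpin 1 library of mRNA and 1 of small RNA were sequenced, so 4 libraries were compared in pairs and no difference has a replicate check. The sources used here give neither the hairpin sequences nor the number of clones nor the age of the mice.

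The let-7 microRNAs pair through their seed, bases 2 to 8 counted from the 5′ end, with matching stretches in the 3′ untranslated region (UTR) of messenger RNAs, and this lowers the level or the translation of the message. In the fetal liver let-7 is scarce and its targets are high. As the liver matures let-7 accumulates and most of these targets are silenced, and many return in liver cancer, which is why they are called oncofetal. Lin28b closes a loop with its own regulator, since the Lin28b protein blocks the processing of let-7 precursors and its mRNA is a let-7 target. H19 has been described as an RNA that binds let-7, so the comparison asks whether let-7 targets differ when a hairpin against H19 is present.

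The targeted RNA was examined first. H19 had 43 reads with shcont and 40 in the library labelled shH19, a ratio of 0.931 with a 95% counting interval of 0.589 to 1.46. Its counts did not bear out that label, so every direction below refers to the label alone. In all, 33578868 and 34061172 reads were counted on genes and 7105897 and 10483889 on mature microRNA arms. Ratios divide the library labelled shH19 by the control after TMM scaling, with 1 count added, and their intervals are exact conditional binomial intervals that cover counting error only. Of 15 hepatocyte markers 9 were listed, with summed reads of 41623 and 35181, and Tf, Cps1, Cyp2e1, Cyp3a11, Tat and Asgr1 were not listed. Most of these reads came from Apob, a lipoprotein, with 37279 and 30259 (log2 ratio -0.30), while Alb, serum albumin, had 129 and 88 (-0.55). Hnf4a, a transcription factor of hepatocyte identity, had 2373 and 2764 (0.22) and Fah, an enzyme of tyrosine breakdown, 1396 and 1668 (0.26). The 9 cholangiocyte and progenitor markers were all listed, with summed reads of 110153 and 118887, of which Spp1, osteopontin, gave 72614 and 73248 and Krt7 6162 and 4194. Of 10 macrophage markers 6 were listed, with summed reads of 3509 and 2655, while Adgre1, Clec4f, C1qa and Marco were not. The lysozyme gene Lyz2 had 132 and 53 (log2 ratio -1.30, interval -1.81 to -0.85), the lowest ratio of the genes with at least 100 reads in 1 library. Cd14, a receptor for bacterial lipopolysaccharide, had 3189 and 2417 (-0.40) and Cd68, a lysosomal protein, 118 and 140 (0.24). Summed reads were 26 and 13 for the 1 listed of 9 lymphocyte markers, 72 and 73 for 2 of 8 endothelial markers, 94 and 66 for 3 of 9 stellate and fibroblast markers and 66 and 50 for 2 of 7 erythroid markers. The part of other cells in the results below was not tested. Fewer cells with a transcript and less of it per cell cannot be told apart in bulk libraries.

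The let-7 family members that carried the reads are shown first because their seed defines the sites in the target genes. Capitals mark bases 2 to 8, the sequences are those of RefSeq on GRCm38.p6, and the abundant members differ outside the seed only.
let-7f-5p: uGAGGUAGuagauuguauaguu
let-7i-5p: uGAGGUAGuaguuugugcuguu
let-7a-5p: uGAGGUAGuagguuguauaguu
let-7e-5p: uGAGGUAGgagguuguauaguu
let-7c-5p: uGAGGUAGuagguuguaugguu
let-7g-5p: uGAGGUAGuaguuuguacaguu
let-7b-5p: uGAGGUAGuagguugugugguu
let-7d-5p: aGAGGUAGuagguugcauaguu
miR-98-5p: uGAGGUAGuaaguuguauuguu
let-7j: uGAGGUAUuaguuugugcuguuau
The first 9 share the seed GAGGUAG. Against let-7a-5p, counting from 1 at the 5′ end, let-7f-5p differs by G12A, let-7c-5p by A19G and let-7e-5p by U9G. Only let-7j among those shown departs within the seed, by G8U, which is also its 1 difference from let-7i-5p over their shared length. The shared seed also occurs in let-7k, whose arm had 0 and 2 reads, and in miR-1961, which was left out of the family sums.

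Sites were sought as CTACCTC, the 7 letters that pair with the shared seed, on the transcript strand of the longest 3′ UTR that GENCODE vM1 gives for each gene. All 10 genes held at least 1 match, and 7 of 10 held an 8-base match in which an A follows. Among all 11836 listed genes with a 3′ UTR 10.3% held the 7 letters, and among the 5668 whose 3′ UTR lies within the length range of the 10 genes 15.8% did. Such matches are part of how let-7 targets were recognised, so their presence is a description and not a finding. Nr6a1, a nuclear receptor that silences pluripotency genes as embryonic cells differentiate, held 8 matches. Hmga2, Igf2bp1 and Lin28b held 4 each, and the other 6 genes held 1 each. Of the 8 listed genes with 4 or more matches, 4 were thus among these targets. A weaker kind of match is TACCTCA, which pairs with bases 2 to 7 and has an A after it but no C before it. Of this kind Hmga2 and Arid3b held 3 each, and Igf2bp1, Igf2bp2, Lin28b and Nras held 1 each. Hmga1, Igf2bp3, Plagl2 and Nr6a1 held 0.

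The sites below are the stop-proximal or best-matched ones of genes on which the results turn, printed 5′ to 3′ as DNA letters with the seed match in capitals. The 8-base matches end in a capital A.
Hmga2, base 58 of the 3′ UTR: cgccgacattcaatttCTACCTCAgca
Lin28b, base 36: cacccgggcgggaagtCTACCTCAtgc
Igf2bp1, base 1715: tgctgtgcgaagtaaaCTACCTCAagg
Igf2bp2, base 1313: aacacacaaataaaagCTACCTCAggt
Igf2bp3, base 548: gtgcatttttactcaaCTACCTCAggt
Nr6a1, base 371: atgttgacaaagacaaCTACCTCAatg
Nr6a1, base 1228: ggaaaggggcattaaaCTACCTCAtgt
Hmga1, base 801: ctcctctgttcacaaaCTACCTCtgg
Nras, base 187: gacctcttcagaataaCTACCTCctc
Plagl2, base 1584: attcagaaacacacttCTACCTCttt
The first Lin28b and Hmga2 sites lie within 58 bases of the stop codon. In Igf2bp1, whose 3′ UTR of 6337 bases was the longest of the 10, the first of 4 matches is at base 1715. Of the 8 Nr6a1 matches 4 lie between bases 101 and 1228 and 4 between bases 3827 and 4310, with those at 4135 and 4145 the closest pair.

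**Figure D1:**
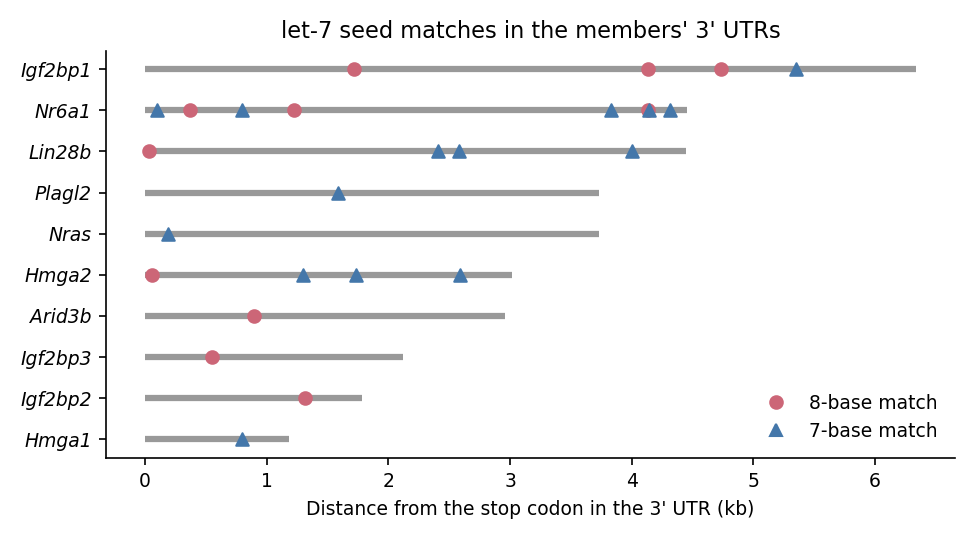
Positions of let-7 seed matches along the longest annotated 3′ UTR of each gene, in kb from the stop codon on the x axis. Circles are 8-base matches and triangles are 7-base matches. Nr6a1 has 8 matches, Hmga2, Igf2bp1 and Lin28b have 4 each and the other 6 genes have 1.

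The let-7 reads themselves were higher in the small RNA library labelled shH19. The 11 listed 5p arms of let-7 and miR-98 held 169441 reads with shcont and 288999 there, which is 2.38% and 2.76% of arm reads. The log2 ratio of the scaled sums was 0.26 (interval 0.25 to 0.27). Of the 10 arms with at least 100 reads in 1 library 9 had a ratio above 1, against 53.2% of all 295 such arms. None reached 2-fold in either direction, against 0.0% of all arms higher and 2.03% lower. At least 1.2-fold higher were 6 of 10, against 20.3% of all arms, but 3 of 10 with total counts, against 15.9%, since let-7b, let-7d and let-7i then lay under the limit. The counting interval lay above 1 in 7 of 10 arms, against 33.2% of all arms.

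Ratios differed within the family by more than counting error. Most read was let-7f-5p, with 50038 and 94770 reads, 29.5% and 32.8% of the family's 5p reads, and a ratio of 1.33 (1.31 to 1.34). Without it the remaining family sum had a ratio of 1.14 (1.13 to 1.15). Ratios were 1.31 (1.29 to 1.33) for let-7c-5p with 18347 and 34225 reads, and 1.24 for let-7b-5p with 5039 and 8890. The arm of let-7i had 25889 and 45521 reads (ratio 1.23), and that of let-7d 3615 and 6259 (1.22). A middle value of 1.13 belonged to let-7e-5p, with 22274 and 35807 reads. Near 1 lay let-7a-5p with 25555 and 36504 reads (1.00, interval 0.987 to 1.02), let-7g-5p with 14858 and 21494 (1.02) and miR-98-5p with 3612 and 5143 (0.999). The intervals of let-7f and let-7a are thus far apart, although let-7a and let-7f differ by 1 base. Scaled to the total count, let-7a-5p and let-7g-5p lay below 1, at log2 ratios of -0.05 and -0.03.

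**Figure D2:**
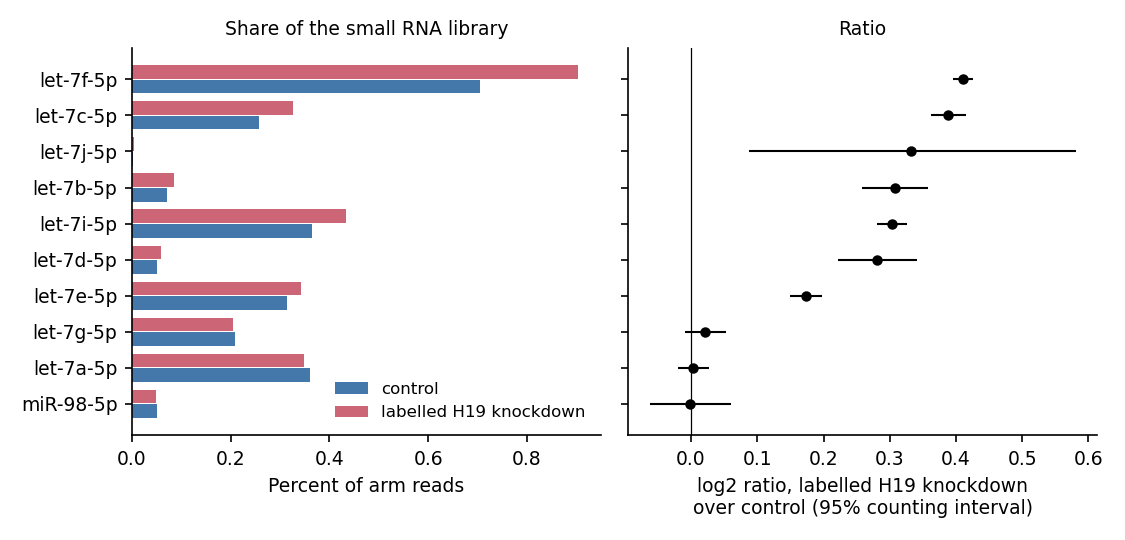
Left, percent of arm reads held by each let-7 or miR-98 5p arm with shcont (blue) and in the library labelled shH19 (red). Right, log2 ratio with its 95% counting interval, 1 library per condition. The ratios run from about 0 for miR-98, let-7a and let-7g to 0.41 for let-7f.

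Several let-7 genes sit in clusters, and arms of 1 cluster had different ratios. On chromosome 17 at 17830194 to 17830840 (GRCm38.p6) lie miR-99b, let-7e and miR-125a, which are known to be cut from a common primary transcript. Their 5p arms had ratios of 0.887 (0.881 to 0.893), 1.13 (1.11 to 1.15) and 1.33 (1.31 to 1.34), with 154560 and 195358 reads for miR-99b, and 90356 and 170662 for miR-125a. These 3 intervals do not overlap. On chromosome 15 let-7c-2 and let-7b lie side by side, and let-7c-5p and let-7b-5p were at 1.31 and 1.24, but let-7c-5p is also made from a copy on chromosome 16 and its reads cannot be divided. On chromosome X let-7f-2 neighbours miR-98, at 1.33 and 0.999, and let-7f-5p also has a copy on chromosome 13. Passenger 3p arms were scarce, with 3133 and 4706 reads summed over 9 named arms, taking the most read copy of each. Of 7 with at least 100 reads 4 had a ratio above 1, against 53.2% of all arms, so the count is near that share. The annotated 3p sequences of let-7a-1 and let-7c-2 are identical, and their 457 and 558 reads and 454 and 553 reads were nearly all shared between both, with at most 3 assigned to either alone. The shared reads thus stand under both names in the 3p sum and in the count of 7 arms.

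Reads that match the mature sequence exactly made up 76.1% of let-7a-5p reads with shcont and 74.7% in the library labelled shH19, 75.9% and 74.5% of let-7f-5p, and 68.1% and 64.1% of let-7e-5p. With such reads alone the family sum kept a log2 ratio of 0.23 against 0.26, and let-7e-5p was at 0.09 against 0.17. Of the 214 and 384 reads assigned to let-7j 0 matched its mature sequence exactly in either library.

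On the mRNA side, the 10 target genes spanned a wide range of levels. Levels were compared between genes as RPKM, reads scaled to library size and to the length of the longest GENCODE vM1 transcript. Nras, a small GTPase that passes growth factor signals to the Raf kinases, was at 47.2 with shcont and 53.3 in the library labelled shH19. Hmga2, a chromatin protein that binds AT-rich DNA and is abundant in embryos, was at 47.2 and 59.5. In the control each was higher than 88.0% of the 12058 genes with a known length. Igf2bp2 was at 31.9 and 36.6, Hmga1 at 18.0 and 25.6, Igf2bp1 at 13.8 and 15.8, Igf2bp3 at 7.05 and 7.20 and Lin28b at 3.83 and 4.78. Nr6a1 was at 2.47 and 2.35, Plagl2 at 1.74 and 2.11 and Arid3b at 0.567 and 0.517. The order was the same in both libraries except that Hmga2 passed Nras, and those 2 genes had equal levels in the control to 3 digits. With 1 library per condition the spread of a level between cultures is unknown, so neighbours in this order cannot be called different.

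**Figure D3:**
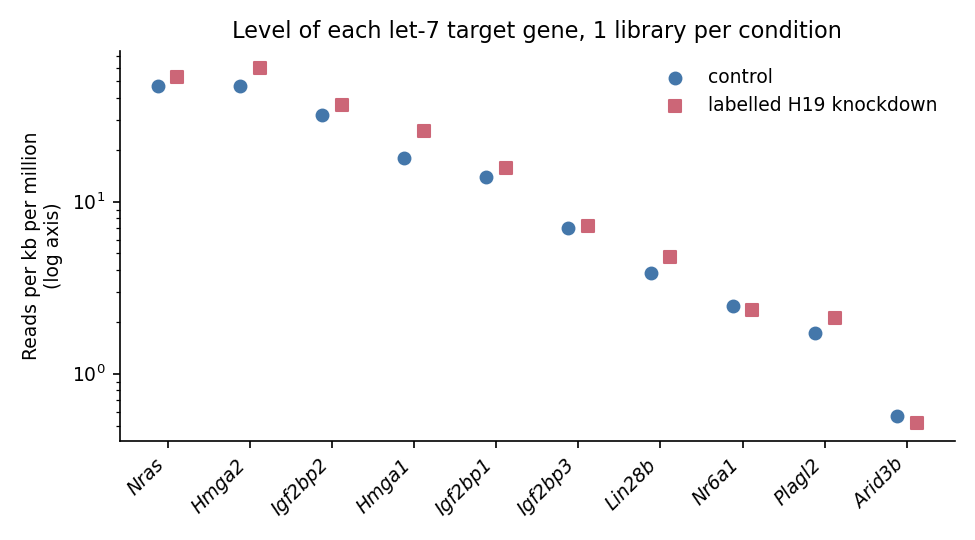
Level of each target gene in RPKM, on a log axis, with shcont (circles) and in the library labelled shH19 (squares). Levels run from 0.567 for Arid3b to 47.2 for Nras and Hmga2 in the control.

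Of the 10 genes 9 had at least 100 reads in 1 library and Arid3b did not. None of the 9 was at least 2-fold higher, against 0.202% of the 11412 genes with that many reads, or at least 2-fold lower, against 0.105%. At a limit of 1.5-fold none was higher or lower either, against 1.31% and 1.39% of genes. At a 1.2-fold limit 4 were higher, against 10.3% of genes, and 0 lower, against 9.89%. With chromosome medians subtracted 2 were higher, Hmga1 and Hmga2, against 7.98% of genes, as Lin28b and Plagl2 were then at log2 ratios of 0.26, just under the limit. A ratio above 1 was found for 8 of 9, against 51.9% of genes, and their median log2 ratio was 0.19, beside 0.01 over all genes. The counting interval lay above 1 for 7 of 9, against 28.0% of genes, and below 1 for 0, against 24.1%. Among the 6 with at least 1000 reads 6 had a ratio above 1, against 54.9% of genes that deep, and 5 had an interval above 1, against 34.8%. No spread between cultures enters these counts.

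The 2 HMGA genes had the largest log2 ratios of the 9. Hmga1, on chromosome 17 at 27556574 to 27563672 (GRCm38), encodes an AT-hook chromatin protein of proliferating and transformed cells. It had 1152 reads with shcont and 1645 in the library labelled shH19, a ratio of 1.43 (interval 1.32 to 1.54). That placed it above 98.0% of genes with at least 100 reads. Hmga2, on chromosome 10 at 120361268 to 120476469, had 6079 and 7667 reads, a ratio of 1.26 (1.22 to 1.30), above 93.7% of genes. With the median of chromosome 10 subtracted its log2 ratio was 0.27 instead of 0.33. The AT-hook genes were thus higher in the library labelled shH19 by less than 1.5-fold each.

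The Igf2bp family encodes RNA-binding proteins that hold and stabilise fetal mRNAs, among them that of Igf2. Igf2bp1, on chromosome 11 at 95957163 to 96005944, had 3918 and 4468 reads (ratio 1.14, interval 1.09 to 1.19). Igf2bp2, on chromosome 16 at 22059009 to 22163299, had 4209 and 4823 reads (1.14, interval 1.10 to 1.19). The 2 ratios were nearly equal although Igf2bp1 holds 4 let-7 matches and Igf2bp2 holds 1. Igf2bp3, on chromosome 6 at 49085218 to 49215469, had 1035 and 1059 reads, a ratio of 1.02 whose interval of 0.937 to 1.11 includes 1. The median log2 ratio of chromosome 6 was -0.10, and with it subtracted Igf2bp3 was at 0.13 instead of 0.03. No read count of Igf2 was listed. Its receptor Igf1r had 3860 and 4450 reads (log2 ratio 0.20), the clearance receptor Igf2r 8992 and 9086 (0.01), and the adaptors Irs1 761 and 998 (0.39) and Irs2 3565 and 4739 (0.41). Of the 10 genes with enough reads in the list of the Igf2 axis and mRNAs bound by these proteins 7 had a ratio above 1, against 51.9% of all genes, and their median log2 ratio was 0.02. Actb, whose mRNA Igf2bp1 is known to carry, had 193420 and 221801 reads (0.20), and Myc had 1730 and 1729 (-0.002).

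Lin28b, on chromosome 10 at 45376617 to 45486314, had 699 and 874 reads, a ratio of 1.25 (1.13 to 1.38). Its paralog Lin28a was not listed. In the same pair of conditions the summed let-7 arms were at a log2 ratio of 0.26, so the blocker of let-7 processing and the let-7 family both had ratios above 1. Of the 23 measured genes that process, degrade or load let-7, Lin28b included, 16 had a ratio above 1, against 51.9% of all genes. By at least 1.2-fold 2 of 23 were higher, against 10.3%, and 0 lower, against 9.89%, and the median log2 ratio was 0.07. Dicer1, which cuts the precursor hairpin, had 819 and 1160 reads (log2 ratio 0.50), or 0.22 with the median of chromosome 12 subtracted. Zcchc11, which adds uridine to let-7 precursors held by Lin28 proteins, had 706 and 834 reads (0.24), and its relative Zcchc6 had 2975 and 2861 (-0.06). Dis3l2, the nuclease that degrades uridylated let-7 precursors, had 770 and 841 reads (0.13). Drosha had 1407 and 1638 reads (0.22), its partner Dgcr8 2392 and 2143 (-0.16) and the export factor Xpo5 3799 and 3901 (0.04). Ago2, an Argonaute that carries the mature strand, had 3616 and 4307 (0.25). Its relatives Ago1, with 746 and 679 reads (-0.14), and Ago3, with 541 and 511 (-0.08), were below 0. Ago4 had 11 and 19 reads, too few to be counted.

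Nras, on chromosome 3 at 103058285 to 103067914, had 7051 and 7967 reads, a ratio of 1.13 (1.09 to 1.17). Its close relative Hras had 2375 and 2429 reads, a ratio of 1.02 (log2 interval -0.05 to 0.11). That interval includes 0 and ends below the lower log2 bound of 0.13 for Nras, which concerns counting error in single libraries only. Rras2 had 11074 and 10216 reads (log2 ratio -0.12). Of 20 measured Ras effectors and feedback genes 14 had a ratio above 1, against 51.9% of all genes. By at least 1.2-fold 4 of 20 were higher, against 10.3%, and 0 lower, against 9.89%, with a median log2 ratio of 0.09. Etv4, an ETS factor induced by Ras signalling, had 225 and 362 reads (0.68), Spry2, a feedback inhibitor, 335 and 505 (0.59), Sos1 589 and 731 (0.31) and Ksr1 459 and 559 (0.28). Dusp6, the ERK phosphatase, had 2249 and 2381 (0.08).

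The remaining transcription factors were low. Plagl2, a zinc finger factor of the PLAG family on chromosome 2 at 153227769 to 153241358, had 327 and 397 reads, a ratio of 1.21 (1.05 to 1.41). Its relative Plag1 had 338 and 335 reads (log2 ratio -0.01). Nr6a1, on chromosome 2 at 38723369 to 38926461, had 528 and 504 reads, a ratio of 0.954 whose interval of 0.842 to 1.08 includes 1. The antisense gene Nr6a1os within it had 11 and 23 reads, and strand use in the counting is not stated, so reads of the pair cannot be told apart. Arid3b, an AT-rich DNA-binding factor on chromosome 9 at 57790353 to 57836847, had 80 and 73 reads, a ratio of 0.913 (0.655 to 1.27). A difference of the size seen for Hmga2 was not detectable at that depth. Its relative Arid3a had 216 and 246 reads (log2 ratio 0.19).

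**Figure D4:**
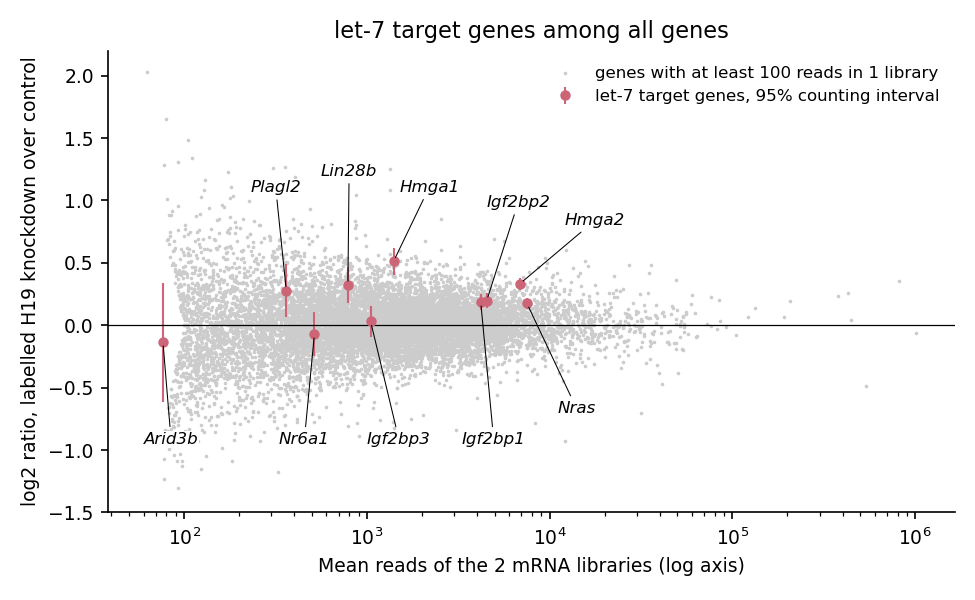
Log2 ratio, shH19 over shcont, against mean reads on a log axis, for the target genes (red, with 95% counting intervals) and all genes with at least 100 reads in 1 library (grey). The target genes lie between -0.13 for Arid3b and 0.51 for Hmga1, and the grey genes between -1.30 and 2.03. No range was computed for genes of like depth.

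Ratios of the target genes are set against their number of let-7 matches next. Nr6a1, with 8 matches, was at a log2 ratio of -0.07, and Hmga1, with 1 match, was at 0.51. The genes with 4 matches were at 0.33 for Hmga2, 0.32 for Lin28b and 0.19 for Igf2bp1. Those with 1 match and enough reads ran from 0.03 for Igf2bp3 to 0.51. Over all genes with at least 100 reads and a 3′ UTR the median log2 ratio was 0.01 for the 8819 genes without a match and 0.01 for the 931 genes with 1. It was 0.006 for the 105 genes with 2 and -0.03 for the 15 genes with 3 or more. Without the target genes the last median was -0.04 over 11 genes. Genes above 0 made up 53.3%, 52.3%, 50.5% and 46.7% of these classes in turn. Genes with an 8-base match, 371 in all, had a median of 0.01. The medians of genes with these letters thus lay within 0.05 of 0, beside 0.19 for the 9 target genes.

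**Figure D5:**
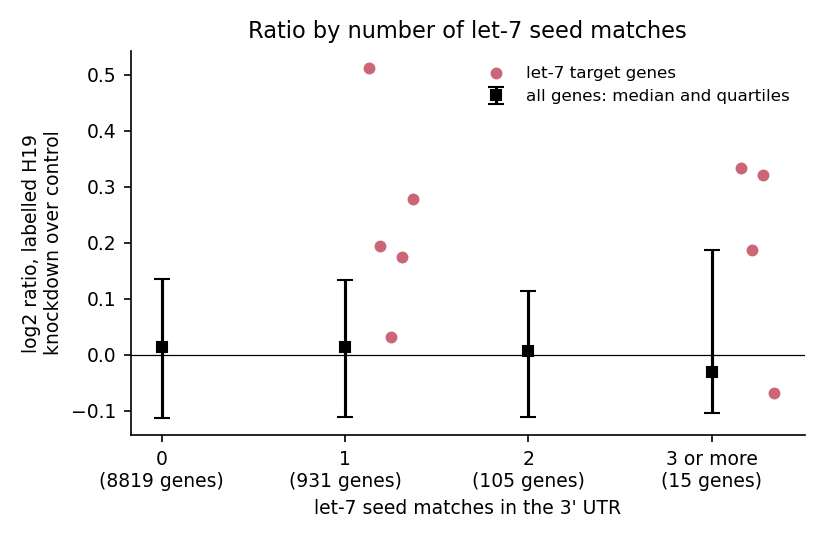
Log2 ratio by number of let-7 seed matches in the 3′ UTR. Squares and bars are the median and quartiles of all genes with at least 100 reads in 1 library, and red points are the 9 target genes with enough reads. The medians lie between -0.03 and 0.01 in all 4 classes.

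Other genes described as let-7 targets split nearly evenly by the sign of their log2 ratio, but less evenly by its size. Of 57 in that list 53 were listed and 46 had enough reads. Of these 25 had a ratio above 1, against 51.9% of all genes, and 21 below, with a median log2 ratio of 0.03. The counting interval lay above 1 for 19 of 46, against 28.0% of all genes, and below 1 for 12, against 24.1%. By 1.2-fold or more 10 of 46 were higher, against 10.3% of all genes, and 3 lower, against 9.89%. Cpeb2, a translational regulator, had 255 and 413 reads (0.69), Fras1, an extracellular matrix protein, 119 and 183 (0.62), Lrig3, a membrane protein, 244 and 362 (0.57) and Edn1, endothelin, 614 and 872 (0.50). In the other direction Fas, a death receptor, had 1125 and 819 reads (-0.46) and the receptor Tgfbr1 7140 and 6480 (-0.14). The 16 measured relatives of the target genes divided equally, 8 above and 8 below, beside 51.9% of all genes above, with a median of 0.01. Hmgb1 had 8644 and 10021 reads (0.21), Hmgn5 250 and 339 (0.44), Hmgn3 284 and 218 (-0.38) and Mras 316 and 267 (-0.24).

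Other oncofetal and fetal liver genes had no common direction. Of 21 in that list 12 were listed and 7 had enough reads. A ratio above 1 was found for 3, against 51.9% of all genes, and below 1 for 4, at a median log2 ratio of -0.06. Afp, the classical oncofetal protein of liver cancer, had 75 and 44 reads, while Igf2, Dlk1, Gpc3 and Sall4 were not listed. Aldh1a1, an aldehyde dehydrogenase used as a stem cell marker, had 19372 and 11857 reads (-0.71), and Krt19, a biliary and progenitor keratin, had 29919 and 39984 (0.42). Sox9, a biliary transcription factor, had 122 and 109 (-0.16). The surface proteins Cd24a, with 17252 and 18684 reads (0.11), and Cd44, with 12498 and 12588 (0.01), were nearer to 0.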

How the data were processed

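The data were 2 mRNA libraries and 2 small RNA libraries. The authors deposited raw counts per gene symbol, and per the submitters' processing notes STAR 2.5.2b, Trimmomatic 0.36 and GRCm38 were used. The counting program and its annotation were not given in the sources used here. The deposited small RNA counts come from reads of 15 to 31 nucleotides compared with miRBase 21 according to the series' design text, with 1 line per precursor and columns for each arm. Where precursor copies share an arm, the most read copy was used. Inserted apostrophes were removed from symbols.

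Counts were scaled with edgeR 4.0.16 TMM factors in R 4.3.3. Ratios, exact conditional binomial 95% intervals, counts and medians were computed in Python 3.11.15 with pandas 2.3.3, numpy 2.4.6 and scipy 1.17.1, and plots with matplotlib 3.10.9. With 1 library per group no p-value was computed. PCR copies are not independent molecules, so intervals cover counting error only. Chromosomes came from RefSeq for 87.1% of symbols, and 3′ UTRs and lengths from GENCODE vM1, an annotation of the older build NCBIM37 used for sequence only.

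The members and lists were chosen with earlier results of these data known. The text names all members, H19, let-7 5p arms, up to 4 genes of each list, those farthest from a log2 ratio of 0 with at least 100 reads, and genes whose role is needed. Fas, Tgfbr1, Nr6a1os and genes added for a named role or as a paralog were chosen after their values were seen. Alternatives were total counts, DESeq2 1.42.0 size factors, 5 or 0.5 counts added, other minimums and folds, chromosome medians subtracted, sums over copies and exact matches. Leaving the 10 most counted features out of TMM, and the 1.2-fold counts under other settings, were chosen after seeing the data. Some genes are not reported here. On simulated counts of 16211 genes, 100.0% of 200 genes altered 3-fold and 0 of 11139 unaltered ones were called at 2-fold, and on 889 arms 97.0% of 100. The simulated counts held counting error only and were scaled by library totals, not TMM. Only genes and arms averaging at least 100 reads were altered. The simulation thus checks the calculation and tells nothing about spread between cultures or about ratios as small as those above.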

Additional observations from a re-analysis of the deposited data

Results flagged for a closer look

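Reads outside both mature arms of the let-7d precursor were not part of the comparison of arms. The shcont library had 9 and the library labelled shH19 had 61, for a scaled log2 ratio of 2.15 (counting interval 1.23 to 3.45), or 0.191% and 0.744% of the precursor's reads. The value stands out because a column left unused was higher there than in the control. The let-7d precursor did not reach 100 such reads in either library, the minimum asked of arms above. At the let-7 precursors that did, the log2 ratio lay between 0.05 for let-7b and 0.64 for let-7c-1.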

How the results depend on the processing

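The 10 genes kept the sign of their log2 ratio under each alternative run, and 8 of 9 stayed above 0, or 6 of 6 at a minimum of 1000 reads. The median of the genes ran from 0.18 to 0.20. At 1.2-fold 4 genes and 6 let-7 arms were higher in place of 0 at 2-fold, and without a minimum 1 arm, let-7k with 2 reads, passed 2-fold; a looser limit admits more features by construction. The summed let-7 log2 ratio of 0.26 was 0.21 with total counts, 0.27 with DESeq2 size factors, 0.23 with exact matches, 0.27 summed over copies and 0.28 without the 10 most counted arms in TMM. The median of the arms, 0.29, was 0.24 with total counts and 0.17 with exact matches. That last median includes let-7j, which had 0 exact reads and so entered at a log2 ratio of 0. Among the arms with exact reads the middle value was 0.25, that of let-7d-5p. The arms above 0 numbered 9 of 10, against 53.2% of all arms. They numbered 7 with total counts, 6 with exact matches, and 10 with DESeq2 size factors or without the 10 most counted arms in TMM. The share of all arms above 0 was not computed for these alternatives. At 1.2-fold, 3 arms were higher with total counts, against 15.9% of all arms. With exact matches, which let-7j lacks, 4 of 10 were, against 25.4% of all arms, beside 20.3% in the main run. Of the genes 3 were higher with total counts, against 9.01% of all genes, and 2 with chromosome medians subtracted, against 7.98%. Why exact matches gave other values at the arms that had them was not tested. Of 136 values of single genes and arms under alternatives 13 left their counting interval. H19 stayed between -0.14 and -0.09. No paired analysis was possible because each group holds 1 library, and for the same reason no library could be left out. Depth limits Arid3b, with 80 and 73 reads, and H19 most.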
